A study of Mus musculus with 4 samples.

Results

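The TRiC/CCT chaperonin is built from 8 related subunits, encoded by Tcp1, Cct2, Cct3, Cct4, Cct5, Cct6a, Cct7 and Cct8. The array features whose gene name is one of these symbols were taken, every probe on every array, which gave 8 genes and 19 probes of 32562 named genes and 56605 probes. The data are 4 one-colour expression arrays of mouse CD4+ T cells, 1 array per group, so no group has a replicate. The groups WT naive T and, with the deletion, Nr4a-TKO naive T were sorted from spleen and lymph nodes as CD4+, CD25 low, CD44 low, CD62L high and Foxp3- cells. WT iTreg 3 h and Nr4a-TKO iTreg 3 h were the same kinds of cell after 3 h in culture on anti-CD3 and anti-CD28, with IL-2, TGF-β1 and antibodies to IFN-γ and IL-4. These are the first hours of a culture that leads to induced regulatory T (iTreg) cells, so a cell called iTreg 3 h is an activated T cell and not yet a regulatory cell. Nr4a-TKO stands for loss of the nuclear receptors Nr4a1, Nr4a2 and Nr4a3. In the study's methods, donors lacked Nr4a3 and carried floxed Nr4a1 and Nr4a2, and their Ly5.2+ cells were taken from Rag2-/- hosts that had received a mixture with Ly5.1+ WT marrow. WT cells came from hosts of WT marrow alone. The genotype and the kind of chimera therefore cannot be told apart.

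CCT is the cytosolic chaperonin of eukaryotes. Its 8 subunits sit side by side in a ring, and the rings stack back to back around a chamber that opens and closes with ATP. Actin and tubulin depend on it to fold, as do many WD40 β-propeller proteins, among them the cell cycle activator Cdc20 and the mTORC1 component Raptor. The co-chaperone prefoldin hands it newly made actin and tubulin. Each subunit has its own place in the ring and binds substrates differently, and a complete ring needs all of them. T cells that leave quiescence grow and raise protein synthesis before they divide, which is the setting in which folding capacity is of interest here.

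The probes behind the main observations are shown first, since probes for the same gene did not all behave alike. Each is 60 bases long and is read 5′ to 3′ in the sense of the transcript, with the mm9 position given by the scanner files. No mm9 gene annotation was used here, so the exon, intron or untranslated region of a probe is not stated. Tcp1 had a probe for its RefSeq mRNA (NM_013686) at chr17:13116096-13116155 and a probe for each of the Ensembl transcripts ENSMUST00000134665, at chr17:13113387-13113446, and ENSMUST00000133003, at chr17:13112975-13113034. The mRNA probe can be read without a stop codon in 2 frames and the ENSMUST00000133003 probe in 1, whereas the ENSMUST00000134665 probe has a stop codon in every frame. So do the brightest Cct5 probe and the dimmer Cct6a probe, which were more than 2-fold higher at 3 h in both genotypes.
Tcp1 NM_013686: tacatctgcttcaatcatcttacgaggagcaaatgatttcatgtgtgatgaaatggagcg
Tcp1 ENSMUST00000134665: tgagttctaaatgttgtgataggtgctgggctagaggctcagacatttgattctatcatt
Tcp1 ENSMUST00000133003: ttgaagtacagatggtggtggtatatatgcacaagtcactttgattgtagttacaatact

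Cct3, the subunit with the largest difference, had 3 probes, all for NM_009836. They start at bases 749, 1042 and 1353 of that mRNA. The probe from base 1042, whose ends lie 4768 bases apart in the genome (chr3:88117527-88122294) and which therefore spans a splice junction, was the brightest. The others are at chr3:88115634-88115693 and chr3:88124479-88124538.
Cct3 from base 749: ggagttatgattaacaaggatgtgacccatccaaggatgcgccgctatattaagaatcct
Cct3 from base 1042: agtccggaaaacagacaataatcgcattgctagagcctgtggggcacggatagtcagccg
Cct3 from base 1353: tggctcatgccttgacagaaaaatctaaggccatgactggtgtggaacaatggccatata

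All 19 probes were well above background on all 4 arrays. Values are log2 intensities after background correction and quantile normalization. The only error that can be given is that of repeated spots of one probe on one array, whose median SD was 0.112 to 0.130 per array. From this source alone a log2 difference carries an SD of 0.174, and a difference between 2 such differences one of 0.247. This SD covers spots within an array, not the variation between arrays, as in labelling and hybridization, or between mice or cultures. It is therefore a lower bound on the error, no test was made and no p-value is given. A gene is represented by its brightest probe, and "past 2-fold" means a log2 difference above 1 or below -1.

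The labels were checked against the genes they name. The stage labels held, since all 8 of the early activation genes listed were more than 2-fold higher at 3 h in both genotypes, from Egr1 at 1.35 to Irf4 at 6.35 in WT. The genotype labels were less clear. Neither Nr4a1 nor Nr4a2 had a lower signal under the Nr4a-TKO label, the log2 differences being 1.34 and 0.19 in naive T and 0.48 and 1.38 at 3 h. Nr4a3 was lower on 2 of its 3 probes at 3 h, by -1.86 and -1.47, and not on the brightest, at 0.19. Whether these probes lie in the deleted parts was not tested, so "Nr4a-TKO" here means the arrays labelled so. Of the CD4 T cell markers, 9 of 10 were measured, all well above background, and 5 were more than 2-fold lower at 3 h in WT and 6 in Nr4a-TKO. The summed intensity of the 6 B cell markers was 898 in WT naive T, 993 in Nr4a-TKO naive T, 548 in WT iTreg 3 h and 717 in Nr4a-TKO iTreg 3 h. None of the 6 was more than 2-fold higher at 3 h in either genotype, and 1 was more than 2-fold lower in each. The 2 CD8 T cell markers summed to 74.4 to 142 and the 5 erythroid markers to 182 to 245 over the arrays, and Hbb-b1 was not well above background on any. The 6 myeloid markers summed to 34578 to 39709, a sum carried by the Itgam probe, at log2 values of 14.98 to 15.14, and Adgre1 was not well above background on any array. None of these markers was more than 2-fold higher at 3 h, and Cd14 and Slc4a1 were more than 2-fold lower in WT but not in Nr4a-TKO. The log2 differences of Cd14 were -2.89, with the WT iTreg 3 h array not well above background, and 0.61, and those of Slc4a1 were -1.65 and -0.57. In bulk samples fewer cells of a type and less RNA per cell cannot be told apart. The part of such cells in the CCT differences was not tested.

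After 3 h of culture every CCT subunit was higher than in naive T cells, in both genotypes. The median log2 difference over the 8 subunits was 1.14 in WT, or 2.21-fold, and 1.21 in Nr4a-TKO, or 2.31-fold. The corresponding medians over all measured genes were -0.05 and -0.02. In WT 6 of the 8 subunits were more than 2-fold higher, against 8.43% of all 23243 genes measured in that comparison. In Nr4a-TKO all 8 were, against 7.82% of 23729 genes. No subunit was lower, whereas 8.57% and 8.01% of genes were more than 2-fold lower in WT and in Nr4a-TKO. The 2 subunits short of 2-fold in WT were Cct2 and Cct4. Under 75th percentile scaling and in the authors' deposited table both passed it, so that 8 of 8 did in each genotype. The shares of all genes more than 2-fold higher were then 9.94% and 10.2% in WT, and 9.24% and 9.61% in Nr4a-TKO. More than 3-fold higher were Cct3 in WT, against 3.33% of genes, and Cct3 and Cct6a in Nr4a-TKO, against 2.68%. The naive arrays served as the baseline within each genotype, so the comparisons in WT and Nr4a-TKO share no array.

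**Figure D1:**
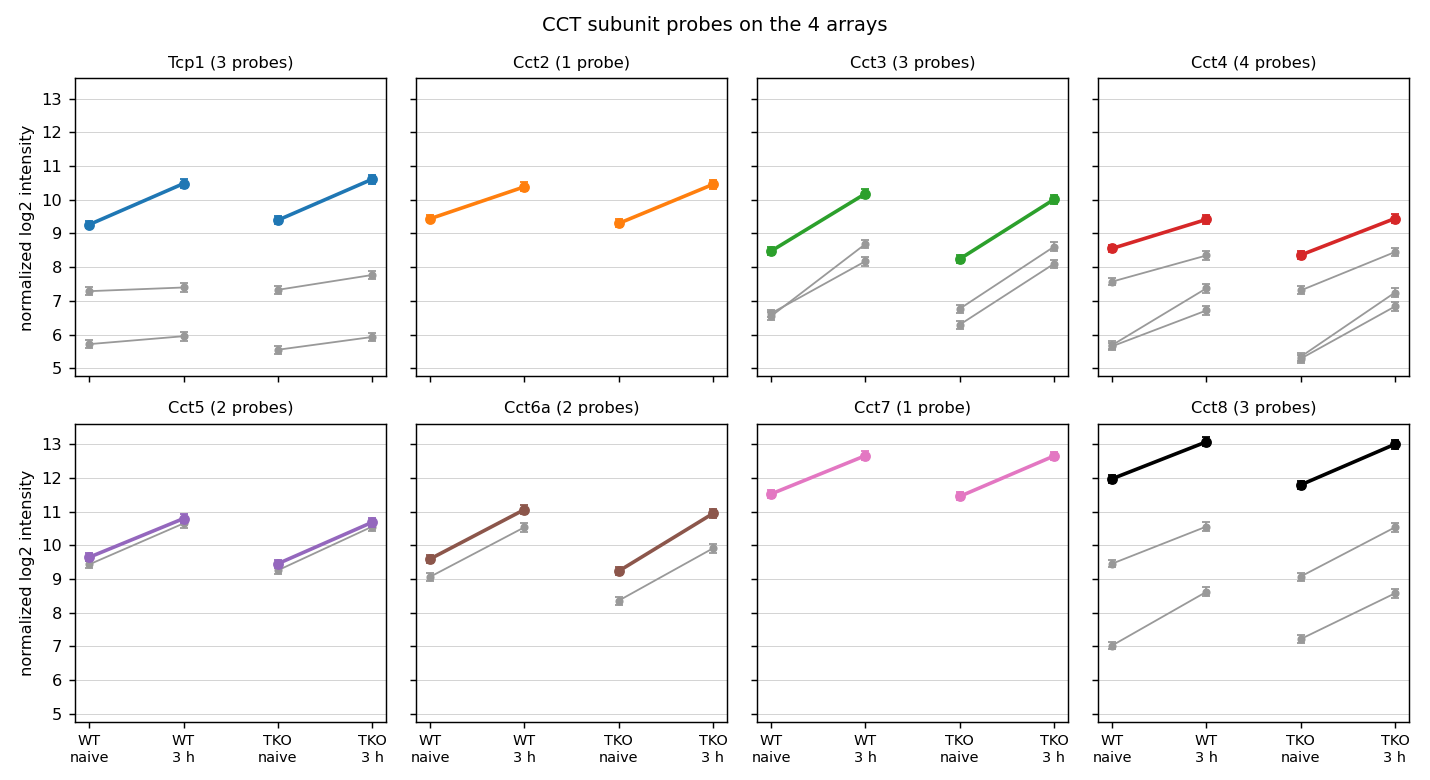
Normalized log2 intensity (y axis) of each CCT subunit probe on the 4 arrays (x axis), with lines from naive T to iTreg 3 h within a genotype. Coloured lines are the probe that represents the gene, grey lines its other probes, and bars the median SD of repeated spots on that array. Every line slopes upwards, the 2 dimmer Tcp1 probes the least.

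Cct3 and Cct6a, which are neighbours in the ring, stood highest on the brightest probes. Cct3, the γ subunit, measured 8.48 in WT naive T, 8.24 in Nr4a-TKO naive T, 10.18 in WT iTreg 3 h and 10.01 in Nr4a-TKO iTreg 3 h. Both 3 h arrays lay above both naive arrays, 3.26-fold in WT (log2 difference 1.70) and 3.41-fold in Nr4a-TKO (1.77). The other Cct3 probes printed above gave 2.14 and 1.84 from base 749, and 1.55 and 1.81 from base 1353, in WT and Nr4a-TKO. Over the 3 probes the mean was 1.80 ± 0.31 (SD) in WT and 1.81 ± 0.04 in Nr4a-TKO. All 3 probes thus exceeded 2-fold in both genotypes.

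Cct6a, the ζ subunit, measured 9.60 in WT naive T, 9.23 in Nr4a-TKO naive T, 11.06 in WT iTreg 3 h and 10.94 in Nr4a-TKO iTreg 3 h. It was 2.76-fold higher at 3 h in WT and 3.27-fold higher in Nr4a-TKO. Its other probe, also for NM_009838, gave log2 differences of 1.47 and 1.55, against 1.47 and 1.71 from the first.

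Tcp1, the α subunit after which the complex is named, measured 9.26 and 9.39 in WT and Nr4a-TKO naive T and 10.48 and 10.61 at 3 h on its mRNA probe. The difference was 2.32-fold in each genotype. The probe for ENSMUST00000134665 measured 7.29 and 7.33 in naive T and 7.40 and 7.77 at 3 h, log2 differences of 0.11 in WT and 0.44 in Nr4a-TKO. The probe for ENSMUST00000133003 gave 5.71 and 5.55, then 5.95 and 5.93, log2 differences of 0.23 and 0.38. The 2 Ensembl probes therefore differed less between the stages than the mRNA probe on the same arrays, and they were the only CCT probes under 1.5-fold in both genotypes. Averaged over its 3 probes, Tcp1 came to 0.52 ± 0.61 (SD) in WT and 0.68 ± 0.47 in Nr4a-TKO.

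Cct5, the ε subunit, measured 9.65 and 9.45 in WT and Nr4a-TKO naive T and 10.79 and 10.68 at 3 h. It was 2.22-fold and 2.34-fold higher, and its other probe gave 2.32-fold and 2.46-fold. Cct7, the η subunit, had 1 probe, which crosses a splice junction (chr6:85417773-85418099). Cct7 measured 11.52 and 11.45 in naive T and 12.66 and 12.65 at 3 h, which is 2.20-fold and 2.30-fold. Both genotypes gave nearly the same Cct7 values at each stage.

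Cct8, the θ subunit, measured 11.97 and 11.79 in WT and Nr4a-TKO naive T and 13.07 and 13.00 at 3 h, or 2.14-fold and 2.31-fold. A further RefSeq probe for Cct8 gave log2 differences of 1.10 and 1.46. The probe for the Ensembl transcript ENSMUST00000177301 gave 1.59 and 1.36, so in this gene, unlike Tcp1, the Ensembl probe was more than 2-fold higher as well.

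On the brightest probes the smallest differences were those of Cct2 and Cct4, which lie next to each other in the ring. Cct2, the β subunit, had 1 probe that measured 9.44 and 9.30 in WT and Nr4a-TKO naive T and 10.39 and 10.46 at 3 h. It was 1.93-fold higher in WT and 2.23-fold higher in Nr4a-TKO. Cct4, the δ subunit, measured 8.55 and 8.36 in naive T and 9.41 and 9.44 at 3 h, which is 1.82-fold and 2.12-fold. These values lie just below the 2-fold threshold in WT and just above it in Nr4a-TKO, by less than the SD of a difference.

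The 4 Cct4 probes spread widely. On the log2 scale the other RefSeq probes gave differences of 0.78 and 1.06 in WT and of 1.14 and 1.55 in Nr4a-TKO. A probe for the cDNA AK011873, at chr11:22905217-22905276, gave 1.69 and 1.91. It lies downstream of the RefSeq probe at chr11:22903146-22903205 that represents the gene. The mean over the 4 probes was 1.10 ± 0.41 (SD) in WT and 1.42 ± 0.38 in Nr4a-TKO.

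Counted by probe, all 19 probes were higher at 3 h in both genotypes. In WT 14 of 19 were past 2-fold, against 9.27% of all 39395 probes measured. In Nr4a-TKO 17 of 19 were, against 8.23% of 40285 probes. Probes of one gene share their transcript, so they repeat a measurement rather than add independent ones. Ordered by the log2 difference of the brightest probe in WT, the genes ran Cct3, Cct6a, Tcp1, Cct5, Cct7, Cct8, Cct2 and Cct4. In Nr4a-TKO they ran Cct3, Cct6a, Cct5, Tcp1, Cct8, Cct7, Cct2 and Cct4. The first and last pairs were the same in both orders, but they depended on the probe. By the mean of all probes Tcp1 was lowest, at 0.52 in WT and 0.68 in Nr4a-TKO. Cct4 then came to 1.10 and 1.42, above Cct2 in both. On the dimmest probe in WT, Cct8 (1.59) stood above Cct3 (1.55) and Cct6a (1.47). Of the gaps between neighbours, only the one below Cct6a, 0.248 in WT and 0.481 in Nr4a-TKO, exceeded the SD of 0.247, in WT barely. Neighbours among the remaining 6 genes were closer to each other than this SD.

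**Figure D2:**
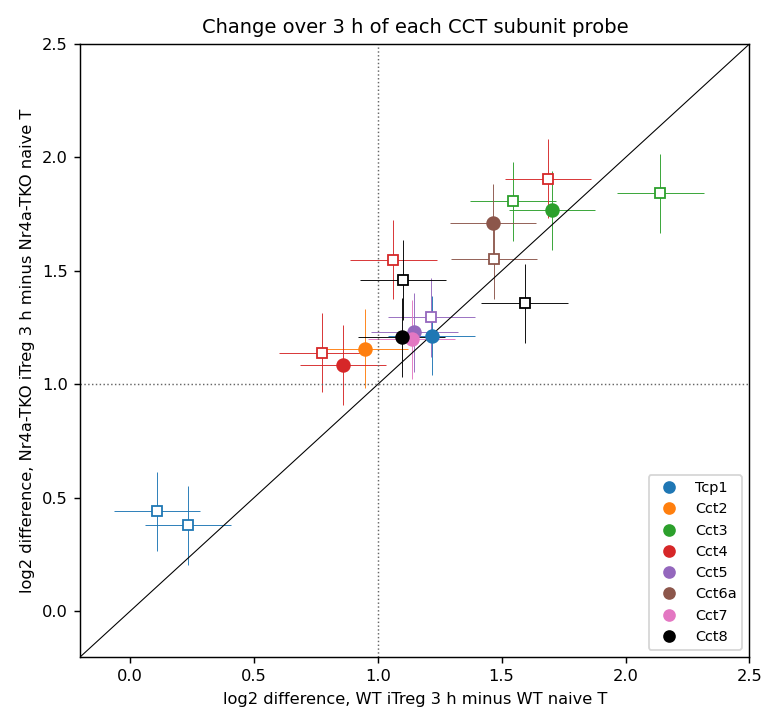
Log2 difference between iTreg 3 h and naive T for each CCT subunit probe, in WT (x axis) and Nr4a-TKO (y axis). Filled circles represent the gene, open squares are its other probes, bars are the SD of 0.174 from repeated spots, the diagonal marks equal differences and dotted lines 2-fold. The points follow the diagonal, and the 2 Ensembl probes of Tcp1 lie apart at the lower left.

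On their brightest probes the subunits also lay close together within the distribution of all genes. In WT they ranged from the 89.4th percentile (Cct4) to the 97.3rd percentile (Cct3) of all log2 differences. In Nr4a-TKO they ranged from the 93.4th percentile (Cct4) to the 98.0th (Cct3). The SD over the 8 subunits was 0.27 in WT and 0.26 in Nr4a-TKO, against 0.84 and 0.80 over all genes. Over the 19 CCT probes the SD was wider, 0.49 and 0.42, against 0.85 and 0.81 over all probes. The sets of all genes and all probes include dim probes, which the CCT set does not.

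**Figure D3:**
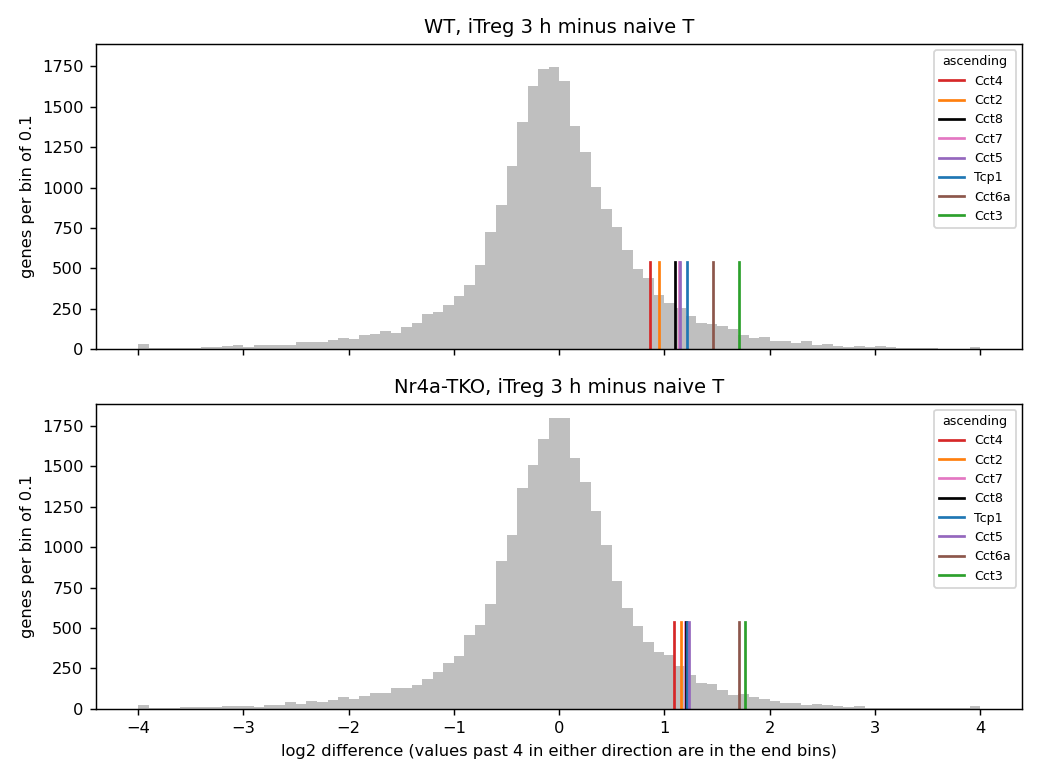
Distribution of log2 differences between iTreg 3 h and naive T over all measured genes (grey, genes per bin of 0.1 on the y axis) in WT (top) and Nr4a-TKO (bottom), with the 8 CCT subunits as coloured lines. All 8 lie to the right of the main body of genes, from 0.86 to 1.70 in WT and from 1.09 to 1.77 in Nr4a-TKO.

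Between the genotypes no subunit differed by 2-fold at either stage. In naive T cells the median log2 difference, Nr4a-TKO minus WT, was -0.19 over the 8 subunits, and 7 of 8 were lower in Nr4a-TKO. Tcp1 was the exception, at 0.13 on its brightest probe. The value farthest from 0 was that of Cct6a, 9.60 in WT against 9.23 in Nr4a-TKO, a log2 difference of -0.36. Of all 23124 genes measured in this comparison, 12214 were lower in Nr4a-TKO. Past 2-fold were 1.92% upwards and 1.68% downwards. By probe 15 of 19 were lower, against 20299 of 39027 probes on the array. However, 1 probe each of Cct3 (0.22), Cct8 (0.19) and Tcp1 (-0.17) stood on the other side of 0 from the probe representing its gene. The median over all genes was -0.02.

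At 3 h the median over the subunits was -0.04, with 5 of 8 lower in Nr4a-TKO, and all 8 were within the SD of 0.174 of 0. The range ran from -0.17 for Cct3 to 0.13 for Tcp1. Of all 23515 genes, 11667 were lower and 11824 lay within 0.174 of 0. Past 2-fold were 1.74% upwards and 1.94% downwards. Cct6a had 1 probe that set it apart from its own gene. The probe at chr5:130322156-130322215 measured 9.07 in WT naive T and 8.36 in Nr4a-TKO naive T, and 10.54 and 9.91 at 3 h. Its log2 differences of -0.71 and -0.63 exceeded those of the probe at chr5:130300316-130300375, which were -0.36 and -0.12. That probe starts at base 2138 of NM_009838, against 1236 for the representative probe, and its genotype difference was about as large at both stages.

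The change over 3 h was slightly larger in Nr4a-TKO than in WT for 7 of 8 subunits, with a median difference of 0.10. All 8 were below the SD of 0.247, from -0.002 for Tcp1 to 0.24 for Cct6a. No subunit reached 2-fold, against 2.44% of 22249 genes higher and 2.39% lower. Of these genes 11557 lay above 0, and 11949 lay within 0.247 of 0. By probe the extremes were a Cct4 probe at 0.49 and the Cct3 probe from base 749 at -0.30. The naive arrays enter both this difference and the naive comparison, so these values are not independent of each other.

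**Figure D4:**
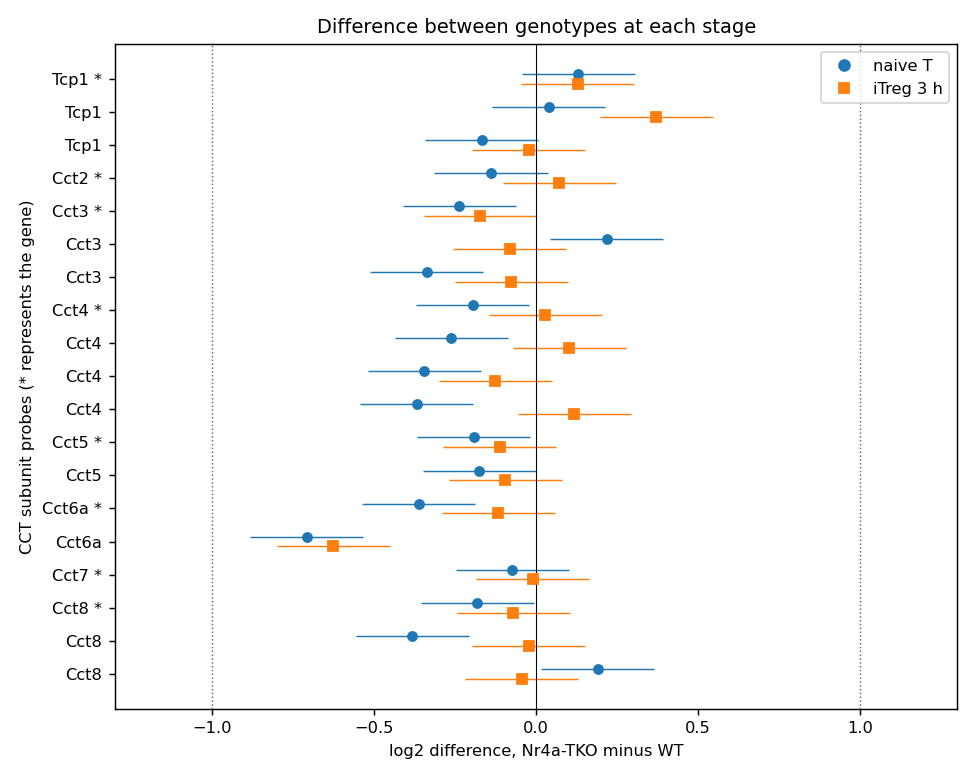
Log2 difference between Nr4a-TKO and WT (x axis) for each CCT subunit probe (y axis, asterisks mark the probe that represents the gene) in naive T (blue circles) and iTreg 3 h (orange squares). Bars are the SD of 0.174 and dotted lines 2-fold. Most naive values lie slightly to the left of 0 and most 3 h values near 0, and the second Cct6a probe lies at -0.71 and -0.63.

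The partners and substrates of CCT did not share one pattern. Over all genes 8.43% in WT and 7.82% in Nr4a-TKO were more than 2-fold higher at 3 h, for comparison with the counts below. Prefoldin, the hexameric co-chaperone, had 2 of 6 subunits more than 2-fold higher at 3 h in each genotype, with medians of 0.84 in WT and 0.56 in Nr4a-TKO. Pfdn4 had the highest difference, 1.48 and 1.72, measuring 4.05 and 3.78 in WT and Nr4a-TKO naive T and 5.53 and 5.51 at 3 h. Its naive values were dim, since the lowest values well above background on those arrays were 3.45 and 3.37. Pfdn5 had the lowest difference, -0.64 and -0.49, measuring 10.31 and 10.27, then 9.67 and 9.78. One co-chaperone thus held subunits on both sides of 0, which the chaperonin did not. Of the phosducin-like proteins, which bind CCT and modulate it, 3 of 4 were measured and none was past 2-fold. Their medians were -0.16 and 0.23, from Pdcl at -0.29 to Txndc9 at 0.42 in WT.

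Of 14 tubulins and actins, the classical substrates, 2 were more than 2-fold higher in WT and 3 in Nr4a-TKO, with medians of 0.11 and 0.09. Tuba1c, an α-tubulin, was highest, at 2.80 and 2.49, and measured 10.52 and 10.63 in naive T and 13.33 and 13.12 at 3 h. Its other 2 probes gave 0.87 and 1.01 in WT, and tubulin genes are similar enough that probes may share transcripts. The lowest were Tubb5 in WT, at -0.77, and Tubb4a in Nr4a-TKO, at -0.64. Tubb2a, a β-tubulin, had the most negative genotype difference of these 14 genes in naive T cells, measuring 10.14 in WT and 8.26 in Nr4a-TKO, and 10.50 and 10.11 at 3 h. The tubulin folding cofactors, which take tubulin over after CCT releases it, had no gene past 2-fold on its brightest probe, with medians of -0.09 and 0.18. They ran from Tbce at -0.49 to Tbcc at 0.41 in WT, and from Arl2 at -0.47 to Tbcb at 0.56 in Nr4a-TKO. The low ends depended on the probe. The other Tbce probes gave 0.82 and 0.80 in WT. The other Arl2 probe gave 0.43 in WT and -1.44, past 2-fold, in Nr4a-TKO.

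Among 8 further substrates, mostly WD40 proteins, medians were 0.21 in WT and 0.61 in Nr4a-TKO. Hdac3, a histone deacetylase and no WD40 protein itself, was highest in WT at 0.50. Wrap53, a telomerase trafficking factor, was highest in Nr4a-TKO, at 1.24. Rptor, which encodes Raptor, was lowest in WT at -1.77, on a probe that measured 7.90 in WT naive T, 6.41 in Nr4a-TKO naive T, 6.13 in WT iTreg 3 h and 6.03 in Nr4a-TKO iTreg 3 h. Its other 3 probes were higher at 3 h in WT, by 0.59 to 1.06, so the direction for Rptor depended on the probe. Gnb2, a G protein β subunit, was lowest in Nr4a-TKO at -0.45.

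**Figure D5:**
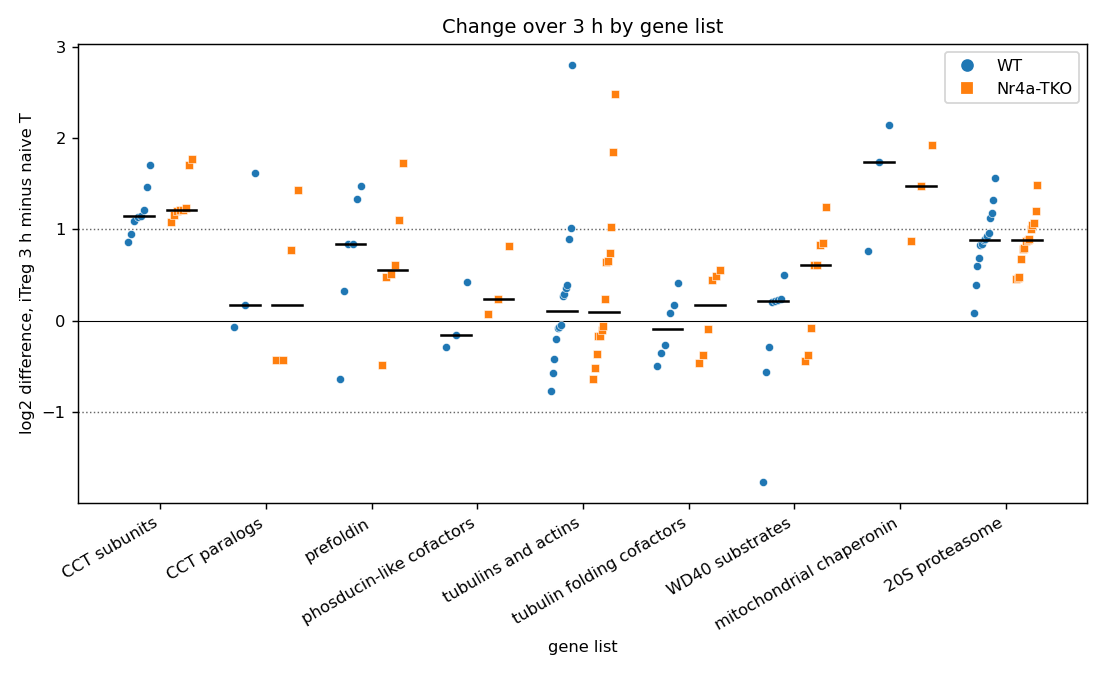
Log2 difference between iTreg 3 h and naive T (y axis) for each gene of the CCT subunits, related chaperones, cofactors, substrates and the 20S proteasome (x axis), in WT (blue circles) and Nr4a-TKO (orange squares). Black bars are list medians and dotted lines 2-fold. Each gene is shown by its brightest probe. CCT subunits form a tight group from 0.86 upwards, whereas prefoldin, tubulins and WD40 substrates, the last including Hdac3, spread over both sides of 0. The mitochondrial chaperonin and 20S proteasome genes also all lie above 0, from 0.77 and 0.09 upwards in WT.

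The relatives of CCT also varied. Of 5 chaperonin-like paralogs, 3 were measured in WT and 4 in Nr4a-TKO. On the brightest probes 1 was more than 2-fold higher, against 8.43% of all genes in WT and 7.82% in Nr4a-TKO. Bbs12, which assembles the ciliary BBSome, was higher by 1.61 and 1.43. The dimmer Mkks probe, however, gave 2.45 in WT and -0.03 in Nr4a-TKO, against 0.176 and -0.429 on the brighter probe. Its difference at 3 h, Nr4a-TKO minus WT, was -2.12, against -0.46. Cct6b, the testis form of the ζ subunit, was lowest in both genotypes at -0.07 and -0.43, measuring 4.84 and 4.79 in naive T and 4.77 and 4.35 at 3 h. Cct6a and Cct6b thus lay far apart in their differences, but the Cct6b probe was dim. The lowest values well above background were 3.07 to 3.45 over the arrays, and differences between dim values are less certain. The mitochondrial chaperonin was higher as well. Hspd1, its barrel, measured 9.87 and 9.78 in naive T and 12.02 and 11.71 at 3 h, log2 differences of 2.15 and 1.92. Hspe1, its lid, measured 12.40 and 12.23, then 13.17 and 13.10, differences of 0.77 and 0.87. Hspa9, the matrix Hsp70, measured 9.27 and 9.33, then 11.01 and 10.80, differences of 1.74 and 1.48.

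For comparison with another ring complex, all 14 genes of the 20S proteasome core were higher at 3 h in both genotypes, with medians of 0.89 and 0.88. Past 2-fold were 4 in WT and 5 in Nr4a-TKO, against 8.43% and 7.82% of all genes. The values ran from Psmb1 at 0.09 and 0.45 to Psma5 at 1.56 and 1.48. The lowest CCT subunit in WT, at 0.86, was close to the proteasome's median. The difference between the lists was not tested.

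The 5 genes whose profile over the 4 arrays lay nearest to the median profile of the subunits were Gpt2, Dnajc2, Ampd2, Ruvbl1 and Tmem147, out of 15665 genes with a RefSeq symbol and well above background on every array. Each profile was centred on the gene's own mean, and likeness was the Euclidean distance over the 4 arrays, from 0.019 for Gpt2 to 0.041 for Tmem147. Gpt2 encodes a mitochondrial alanine aminotransferase and had log2 differences of 1.13 in WT and 1.23 in Nr4a-TKO. Dnajc2 encodes a ribosome-associated J-protein and had 1.14 and 1.20. Ampd2 encodes an AMP deaminase and had 1.15 and 1.18. Ruvbl1 encodes a ring-forming AAA+ ATPase and had 1.12 and 1.16, and Tmem147, an endoplasmic reticulum membrane protein, had 1.11 and 1.18. Among the subunits themselves, which define the median profile, Cct7 lay nearest, at 0.037, and Cct3 farthest, at 0.58, with 4 and 1698 non-members closer.

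Since all the subunits were higher at 3 h, the 250 bases upstream of their annotated starts were read from RefSeq on GRCm38.p6. The table held windows for 7 of the subunit genes, Cct2 and Cct5 with 2 starts each, and Cct4 was not in it. A GC box, GGGCGG on either strand, occurred in at least 1 window of all 7 genes and in 8 of 9 windows of 300 bases (250 before and 50 after the start), against 35.7% of 32851 windows of the table. A CCAAT box, CCAAT on either strand, occurred in Cct3, Cct6a, Cct7 and Tcp1, against 37.4% of windows. The Nr4a monomer site AAAGGTCA occurred in none, against 1.51% of windows, the E-box CACGTG in none, against 7.15%, and the TATA box TATAAA in none, against 13.6%. The heat shock element core GAANNTTC occurred in 1 Cct2 window, against 7.86%. CCGGAAG, an Ets site, occurred in Cct2, Cct8 and Tcp1, against 8.86%, and TGCGCA, the core of an Nrf1 site, in Cct3, Cct5 and Cct6a, against 7.76%. These matches describe letters in a window and no binding was measured here. The GC content of the windows ranged from 45.2% to 66.8%, against a median of 52.4%, and G and C rich windows hold a GC box more readily.

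The upstream sequences of Cct3 and Cct6a, the subunits with the largest differences, of Cct7, which lay nearest to the median profile, and of Cct2, among the smallest, are shown with GC boxes and CCAAT boxes in capitals. Each is 250 bases, read 5′ to 3′ in the direction of the gene, ending at the base before the start. Cct3 is at chr3:88296885-88297134 on the plus strand, with 1 GC box and 2 CCAAT boxes. Cct6a is at chr5:129787106-129787355 on the plus strand, with 2 of each. Cct7 is at chr6:85451255-85451504 on the plus strand, with 2 GC boxes and 3 CCAAT boxes. Of the 2 Cct2 starts, the one shown is at chr10:117063853-117064102 on the minus strand, with 4 GC boxes and no CCAAT box. The window of the other start, at chr10:117063376-117063625, has 1 GC box and no CCAAT box.
Cct3: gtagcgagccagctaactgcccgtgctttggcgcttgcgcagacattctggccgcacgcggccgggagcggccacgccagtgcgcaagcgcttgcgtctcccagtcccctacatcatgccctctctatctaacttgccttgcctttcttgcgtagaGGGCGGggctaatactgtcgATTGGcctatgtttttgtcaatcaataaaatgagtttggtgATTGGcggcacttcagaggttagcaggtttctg
Cct6a: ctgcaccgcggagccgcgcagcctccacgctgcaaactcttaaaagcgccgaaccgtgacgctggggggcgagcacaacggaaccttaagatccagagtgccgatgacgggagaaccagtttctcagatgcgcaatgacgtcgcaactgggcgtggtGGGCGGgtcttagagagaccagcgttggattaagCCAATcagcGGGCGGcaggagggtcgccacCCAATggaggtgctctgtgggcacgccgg
Cct7: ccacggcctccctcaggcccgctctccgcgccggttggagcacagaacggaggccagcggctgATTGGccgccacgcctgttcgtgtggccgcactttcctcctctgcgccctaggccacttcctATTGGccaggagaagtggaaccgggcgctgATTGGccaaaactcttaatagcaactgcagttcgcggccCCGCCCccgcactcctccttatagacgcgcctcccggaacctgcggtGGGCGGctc
Cct2: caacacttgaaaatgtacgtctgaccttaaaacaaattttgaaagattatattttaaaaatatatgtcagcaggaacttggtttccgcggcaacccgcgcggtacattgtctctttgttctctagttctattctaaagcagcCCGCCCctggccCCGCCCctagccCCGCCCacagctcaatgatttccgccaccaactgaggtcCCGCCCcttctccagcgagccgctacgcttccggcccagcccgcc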

How the data were processed

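RNA was labelled with Cy3 and hybridized to 8x60K SurePrint G3 Mouse arrays, and the authors deposited a scanner file per array from Agilent Feature Extraction 11.5.1.1. From the deposited files the raw mean intensity and the local background of each spot were used, together with flags for outliers and for spots well above background. The authors also deposited a table of log2 values, which equal the log2 processed intensity less a constant of 6.35 to 6.58 per array, with the 75th percentile of each column at 0. The columns' medians were -2.16, -2.17, -2.33 and -2.29. The study's methods name RMA, so its steps were followed with limma 3.58.1 in R 4.3.3: normexp with offset 0, quantile normalization over the 4 arrays and log2. Control spots and 115 to 160 outlier spots per array were left out, spots of a probe were averaged, and the brightest probe represented a gene. Where a probe was dim on 1 of 2 arrays, the dim value was raised to the lowest value well above background. Of 62976 spots, 59305 were no controls, and 65.0% to 67.7% of 56605 probes were well above background. No spot was saturated. The number of arrays, 1 per group, limits the precision. Quantile normalization gives all arrays one distribution, so a change in total RNA per cell cannot be seen. Symbols were updated through RefSeq (GRCm38.p6 table): 41700 probes by symbol, 1518 by transcript and 520 by synonym, while 8036 kept the file's name and 4831 had none.

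The named genes are all 8 subunits with every probe, the highest and lowest gene of each list (every gene for lists of 3 or fewer), and the 5 genes nearest in profile. Other named genes were chosen after their values were seen. The members and lists were chosen with earlier results of these data known. The counting was tested on simulated data. Alternatives were the scaling, background correction, probe choice, filter and threshold. Tables and plots were made with Python 3.11.15, pandas 2.3.3, numpy 2.4.6 and matplotlib 3.10.9.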

Additional observations from a re-analysis of the deposited data

How the results depend on the processing

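No paired analysis was possible because each group has 1 array. Over the alternatives run, the median log2 difference of the 8 subunits ranged from 1.11 to 1.34 in WT and from 1.18 to 1.41 in Nr4a-TKO between iTreg 3 h and naive T. It moved past the spot SD under 2 settings: scaling to the 75th percentile gave 1.33 in WT and 1.39 in Nr4a-TKO, and the deposited value table gave 1.34 and 1.41. Those scalings put the median of all genes at -0.11 and -0.06, and at -0.09 and -0.04. Under both, 8 subunits in WT passed 2-fold in place of 6, Cct2 at 1.15 and 1.16 and Cct4 at 1.05 and 1.07. The count then equalled that in Nr4a-TKO. Of all genes 9.94% and 10.2% were more than 2-fold higher in WT under these scalings, and 9.24% and 9.61% in Nr4a-TKO. In Nr4a-TKO 7 passed with an offset of 50, where Cct4 came to 0.98, and with the mean or the lowest probe, where Tcp1 did not. The shares of all genes more than 2-fold higher were 3.59% with that offset, 7.16% with the mean and 7.76% with the lowest probe. With a threshold of 3-fold, 1 subunit in WT and 2 in Nr4a-TKO were past it, against 3.33% and 2.68% of genes. Between genotypes no subunit passed 2-fold under any alternative, and none passed 1.5-fold on its brightest probe, while the lowest probe put Cct6a at -0.71 in naive T and -0.63 at 3 h, both past 1.5-fold. Of 320 values of single subunits under alternatives, 279 moved by less than the spot SD and 41 by more: 13 in the deposited table, 12 under 75th percentile scaling, 11 with the lowest probe and 5 with the mean of all probes. With the lowest probe Tcp1 came to 0.23 in WT and 0.38 in Nr4a-TKO, and with the mean of its probes to 0.52 and 0.68. No subunit past 2-fold changed sign. Spots of one array give no error for separate arrays, mice or cultures.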
